A study of Oryctolagus cuniculus with 8 samples.

Results

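The members are the rabbit genes whose array annotation names a proteasome subunit or factor, a ubiquitin-conjugating enzyme, a ubiquitin protein ligase, a cullin, an F-box protein or a ubiquitin specific peptidase. They were chosen by a text search of the probe descriptions. The search matched 286 of 43603 probes, and the 5 probes of UBE2C were left out, as FBXO5 and CCNF would have been, because these belong to the cell cycle list. The 281 remaining probes stood for 116 genes, of 23364 genes and unnamed transcripts on the array. Of these, 90 genes were bright and complete enough to test, among 11236 tested on the whole array.

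Forebrain RNA was taken at postnatal day 14 from preterm rabbits of the New Zealand breed, born by C-section on gestational day 29 of a term of 32 days. The 4 dexamethasone pups had received this synthetic glucocorticoid by intramuscular injection for up to 5 days, in 2 daily doses of 0.25 mg/kg. The 4 saline pups had received the vehicle. The title poses the question of whether postnatal glucocorticoids hold back myelination, and the design text calls the samples biological replicates. All 8 pups were preterm, formula-fed and of the same age, so no group represents an untreated term brain.

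The ubiquitin system marks proteins for destruction. An activating enzyme loads ubiquitin, a conjugating enzyme carries it, and a ligase places it on a chosen protein. Cullins are the scaffolds of a large ligase family, and F-box proteins are the subunits that hold the target of cullin 1 ligases. The marked protein is unfolded by the regulatory particle of the proteasome and cut inside its barrel-shaped core, while ubiquitin specific peptidases remove ubiquitin before that happens. In the brain this system trims synaptic proteins and clears damaged ones, and glucocorticoids are known for raising several of its ligases in wasting muscle.

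Both samples of an array came from the same group, in 2 dyes, and the 2 dexamethasone arrays lay on a different slide and scan from the 2 saline arrays. Treatment and slide therefore cannot be told apart in any value below. The share of spots well above background was 47.7% to 64.3% in the dexamethasone samples and 39.1% to 59.7% in the saline samples, and 197 to 509 against 932 to 3022 spots were marked as outliers. The 10 spike-in control probes read 0.41 lower on the log2 scale in the dexamethasone samples (median, range −0.56 to −0.30). Levels are log2 normalised intensities, differences are dexamethasone minus saline in log2, and the number of arrays limits their precision. The neuron marker STMN2 and the astrocyte marker AQP4 were well above background in all 8 samples, whereas GFAP, another astrocyte marker, was so in at most 3 samples. The 4 tested markers of dividing cells, of 5 listed, all lay below 0 with a median difference of −0.42, and their mean level was 9.42 to 9.75 in dexamethasone samples and 9.87 to 10.09 in saline samples. Their part in the results below was not tested.

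No member passed the test. With limma across all genes, dye as a term and array as a random block, 0 of 90 members had a Benjamini-Hochberg adjusted p under 0.05, and 0.0623% of all genes did (7 of 11236). The lowest adjusted p among the members was 0.270. At an unadjusted p under 0.05, 6 members were higher with dexamethasone (6.67%), beside 6.33% of all genes, and 5 were lower (5.56%), beside 7.4% of all genes. The 2 groups did not overlap for 4 higher members (4.44%), against 5.93% of all genes, and for 6 lower members (6.67%), against 7.42% of all genes. The members' shares thus lay near the array's own background in both directions.

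Their differences were also small. The median was 0.03 over the 90 members and 0.02 over all genes, with 51 members above 0 and 39 below. In Agilent's processed signals the members' median was −0.26 and that of all genes also −0.26, and in the deposited series table the medians were 0.18 and 0.13. Scaling to the 75th percentile set them apart, with a median of 0.19 for the members and −0.25 for all genes, and 64 of the 90 members lay above the median of all genes. A difference under 0.3 in either direction was found for 87.8% of the members and for 80.6% of all genes. In the reported fit a member's 95% confidence interval reached a median of 0.30 to either side. For 70 of the 90 members the whole interval lay inside a 1.5-fold change. The intervals come from that fit alone and do not cover the slide or the choice of scaling. CUL4A and FBXO42 lay inside, yet read −1.44 and −1.18 under scaling to the 75th percentile, where the 2809 dimmest genes had a median of −1.10. These pieces of bulk tissue hold many cell types, and fewer cells of a type cannot be told apart from less RNA per cell.

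**Figure D1:**
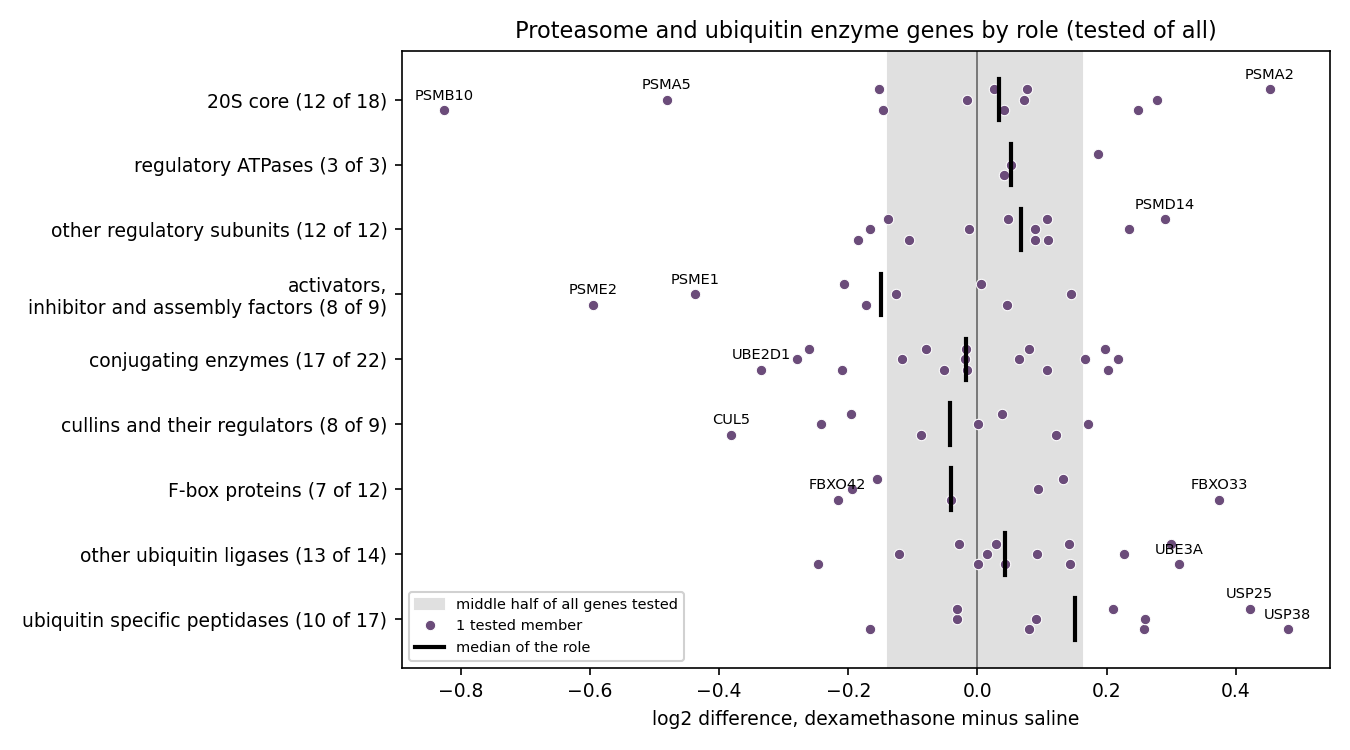
Log2 difference (dexamethasone minus saline, horizontal axis) of each of the 90 tested members, as points in rows by role, with the number tested of all members in brackets. Black bars are role medians and the grey band runs from −0.14 to 0.16, between the quartiles of all 11236 genes tested. Most points of every role lie near the band, and PSMB10 stands farthest to the left at −0.83. Under scaling to the 75th percentile, PSME2, PSME1, UBE2D1 and PSMA5 lay above 0 and USP38 and FBXO33 below 0. The median of all genes was −0.25 there.

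Among the 12 tested genes of the proteasome core, 7 lay above 0 and 5 below, with a median difference of 0.03 that became −0.30 in Agilent's processed signals, where all genes lay at −0.26. Under scaling to the 75th percentile it was 0.50, with all genes at −0.25. PSMB5, the subunit with the chymotrypsin-like activity, had values of 13.12, 13.00 and 12.84 in dexamethasone samples 1, 3 and 4, against 12.95, 12.90, 13.01 and 12.93 in saline samples. Sample 2 of dexamethasone was an outlier spot and had no value. The 2 groups overlapped, and the difference of 0.03 (SE 0.10) had an adjusted p of 0.915 in limma. PSMA4, a structural subunit of the outer ring, had 10.51, 10.36, 10.49 and 10.29 in dexamethasone samples, against 10.37, 10.20, 10.00 and 9.98 in saline samples. Saline 1 reached into the dexamethasone range, and the difference was 0.28 (SE 0.11, adjusted p = 0.359, limma). PSMA5, another outer ring subunit named after its values were seen, averaged 10.92 ± 0.27 in dexamethasone samples and 11.40 ± 0.36 in saline samples (SD, n = 4 each). Its difference was −0.48 and lay at 0.04 under scaling to the 75th percentile, so no direction is given for it.

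PSMB9 and PSMB10 are catalytic subunits of the immunoproteasome, a form of the core that interferon induces and that replaces the standard catalytic subunits. PSMB9 had 8.59, 8.80, 8.38 and 8.90 in dexamethasone samples, against 8.67, 8.73, 8.96 and 8.89 in saline samples. These values overlapped, and the difference of −0.15 (SE 0.14) had an adjusted p of 0.620 in limma. It was −1.06 in Agilent's processed signals and −0.92 under scaling to the 75th percentile, where it passed the test (adjusted p = 0.0495, limma). The 2809 dimmest genes had medians of −0.41 and −1.10 in these settings, and 19% of all genes passed under the 75th percentile. PSMB8, the third catalytic subunit of the immunoproteasome, was well above background in 0 samples and was not tested.

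PSMB10, named after its values were seen, had the difference farthest from 0 of all members. It measured 8.78, 8.27, 8.39 and 8.53 in dexamethasone samples, against 8.39, 8.38, 10.52 and 9.97 in saline samples. Saline 3 and 4, which share an array, stood apart, and saline 1 and 2 lay within the dexamethasone range. The difference of −0.83 (SE 0.48, adjusted p = 0.443, limma) became 0.10 without the array of saline 3 and 4, and −1.76 without the array of saline 1 and 2. The single PSMB10 probe on the array lies at chr5:23501550-23501735 (oryCun2, minus strand) by the file's own coordinates. It is shown because the whole difference rests on this probe and 1 array, and its 60 bases span a longer stretch of genome.
PSMB10: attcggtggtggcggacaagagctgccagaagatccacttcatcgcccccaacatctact

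All 3 tested ATPases, which unfold the target, lay above 0 with a median difference of 0.05. Their median was −0.12 in Agilent's processed signals, where all genes lay at −0.26 and PSMC2 stayed above 0 at 0.14. Under scaling to the 75th percentile the median was 0.64 for the ATPases and 0.42 for the other regulatory subunits, with all genes at −0.25, and PSMC3 lay below 0 at −0.14. PSMC2 had 11.14, 10.96, 10.79 and 10.80 in dexamethasone samples, against 10.43, 10.80, 10.77 and 10.94 in saline samples. PSMC3 averaged 9.50 ± 0.20 in dexamethasone samples and 9.44 ± 0.02 in saline samples (SD, n = 4 each). PSMC6, another of the ATPases, differed by 0.04 (SE 0.14), but its other kept probe gave 0.63 (SE 0.20). The 12 other regulatory subunits split into 7 above and 5 below 0 with a median of 0.07. That median was −0.24 in Agilent's processed signals, where all genes lay at −0.26. All 12 lay under 0.3 in size by the probe that stands for the gene. Other kept probes reached 0.38 for PSMD12, 0.42 and −0.37 for PSMD14 and 0.36 for PSMD5. PSMD4, the ubiquitin receptor, averaged 10.63 ± 0.09 in dexamethasone samples and 10.65 ± 0.07 in saline samples (SD, n = 4 each). PSMD11, a scaffold subunit of the lid, differed by −0.18 (SE 0.10) and PSMD3, another lid subunit, by 0.24 (SE 0.14), with adjusted p of 0.425 and 0.438 in limma.

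The activators, the inhibitor and the assembly factors had the lowest median of the 9 roles, −0.15 over 8 tested genes. It became 0.13 under scaling to the 75th percentile, where all genes lay at −0.25. PSME1 and PSME2 form the heteromeric cap PA28, which opens the core without using ubiquitin and is also induced by interferon. PSME2 had 11.50, 11.80, 11.63 and 11.94 in dexamethasone samples, against 11.96, 12.45 and 12.45 in saline samples 1, 3 and 4. Every dexamethasone value was below every saline value, although dexamethasone 4 and saline 1 were only hundredths apart, and saline 2 was an outlier spot left out of the fit. The difference of −0.60 (SE 0.15) corresponded to 0.662 of the saline level, with an adjusted p of 0.270 in limma, the lowest of any member. PSME1 had 10.92, 10.59, 10.93 and 11.22 in dexamethasone samples, against 11.14, 11.40, 11.51 and 11.35 in saline samples. Only dexamethasone 4 reached into the saline range, and the difference was −0.44 (SE 0.17, adjusted p = 0.351, limma). Under scaling to the 75th percentile PSME2 read 0.05 and PSME1 0.07. S100A9, a granulocyte gene from the list of blood markers, differed by −0.93 (adjusted p = 0.0719, limma), whereas HBB2 and ALAS2, the other tested genes of that list, differed by 0.53 and 0.17. S100A9 averaged 9.62 ± 0.13 in dexamethasone and 10.55 ± 0.14 in saline samples (mean and SD). The values were 16.56 ± 0.39 and 16.16 ± 1.48 for HBB2, and 9.09 ± 0.24 and 8.92 ± 0.26 for ALAS2. Their part in the PA28 values was not tested.

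PSME2 was covered by 5 probes, of which 2 had enough values. These start 3 bases apart and show how closely 1 stretch of RNA was measured. Capitals mark the 57 bases that both probes hold. The first lies at chr17:44190836-44190895 and the second, which stands for the gene, at chr17:44190833-44190892 (oryCun2, minus strand).
PSME2 probe A_04_P093091: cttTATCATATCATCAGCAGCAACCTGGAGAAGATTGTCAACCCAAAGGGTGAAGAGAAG
PSME2 probe A_04_P093088: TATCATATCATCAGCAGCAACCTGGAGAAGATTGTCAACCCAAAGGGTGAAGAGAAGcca
The first gave a difference of −0.10 (SE 0.16) and the second −0.60 (SE 0.15), so the gap between near-identical probes was as large as most members' differences. POMP, the maturation factor of the core, was named after its values were seen because its groups did not overlap. It had 13.03, 13.31, 13.22 and 13.19 in dexamethasone samples, against 13.42, 13.39, 13.44 and 13.33 in saline samples. The difference was −0.21 (SE 0.11, adjusted p = 0.401, limma), and read 0.44 under scaling to the 75th percentile. Its 7 kept probes ran from −0.39 to 0.24.

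**Figure D2:**
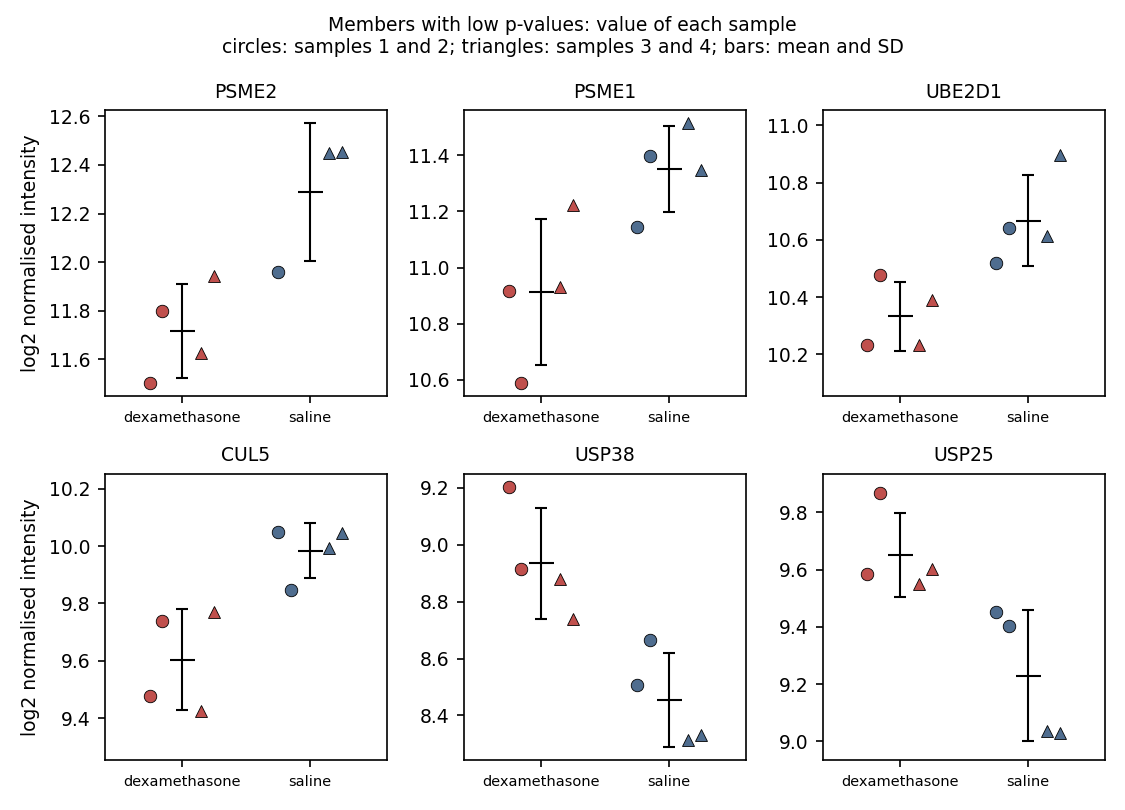
Log2 normalised intensity (vertical axis) of 6 members with low p-values in each dexamethasone sample (left) and saline sample (right), with the mean and SD of each group. Circles are samples 1 and 2, triangles samples 3 and 4, which shared an array within a group, and the dexamethasone and saline points of PSME1 alone overlap. PSME2 has 3 saline points, and the differences of PSME2, PSME1, UBE2D1 and USP38 changed sign under scaling to the 75th percentile.

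Conjugating enzymes showed no common direction, with 7 of 17 tested genes above 0, 10 below and a median of −0.02. The median was 0.30 under scaling to the 75th percentile and 0.19 in the deposited series table, where all genes had medians of −0.25 and 0.13. These counts use 1 probe per gene. UBE2H counts as below 0, but its 5 kept probes ran from −0.02 to 0.29, with 4 above 0. UBE2M counts as above 0, and its 4 kept probes ran from −0.34 to 0.20, with 1 below 0. UBE2D1, which works with a wide range of ligases, had 10.23, 10.48, 10.23 and 10.39 in dexamethasone samples, against 10.52, 10.64, 10.61 and 10.89 in saline samples. All 4 dexamethasone values were below all 4 saline values. The difference was −0.33 (SE 0.10, adjusted p = 0.302, limma), and it read 0.01 under scaling to the 75th percentile. Its 5 probes lie on chromosome 18 (oryCun2, minus strand) between chr18:27795369-27795428 and chr18:27795380-27795439, and all of them were kept. They are printed because they repeat 1 measurement 5 times, with the 49 bases that all hold in capitals.
UBE2D1 probe A_04_P075131: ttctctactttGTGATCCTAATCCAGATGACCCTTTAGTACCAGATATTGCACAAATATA
UBE2D1 probe A_04_P075130: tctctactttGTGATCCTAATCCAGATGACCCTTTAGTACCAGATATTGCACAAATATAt
UBE2D1 probe A_04_P075129: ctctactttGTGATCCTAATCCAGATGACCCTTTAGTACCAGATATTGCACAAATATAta
UBE2D1 probe A_04_P075128: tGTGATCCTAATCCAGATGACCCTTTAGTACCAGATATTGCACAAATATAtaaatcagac
UBE2D1 probe A_04_P075127: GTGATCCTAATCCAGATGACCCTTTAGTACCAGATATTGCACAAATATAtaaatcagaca
In this order the differences were −0.17, −0.23, −0.33, −0.27 and −0.15, all below 0, and the probe that stands for the gene gave the lowest. The UBE2D family is closely related in sequence, and reads of a sister gene by these probes were not tested.

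UBE2B, a conjugating enzyme of DNA repair, had 10.98, 11.29, 11.13 and 11.25 in dexamethasone samples, against 11.13, 11.33 and 11.74 in saline samples 1, 3 and 4. Saline 2 had no value, the groups overlapped, and the difference was −0.28 (SE 0.12, adjusted p = 0.369, limma), which read 0.28 under scaling to the 75th percentile. LOC100343655, which the array describes as the conjugating enzyme E2N, differed by 0.06 (SE 0.20). UBE2Q1, named after its values were seen, had 10.09, 10.31, 10.39 and 10.25 in dexamethasone samples, against 9.95, 10.12, 11.18 and 10.83 in saline samples. As for PSMB10, saline 3 and 4 stood above the rest, and the difference of −0.26 became 0.22 without their array and −0.74 without the other saline array.

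Of the 8 tested cullins and cullin regulators, 4 lay above 0 and 4 below, with a median of −0.04. It was 0.03 in the deposited series table, where all genes lay at 0.13. CUL5, the scaffold of ligases that use SOCS box proteins, had 9.48, 9.74, 9.43 and 9.77 in dexamethasone samples, against 10.05, 9.85, 9.99 and 10.05 in saline samples. The groups did not overlap, and the difference was −0.38 (SE 0.13, adjusted p = 0.319, limma). It lay below 0 under every alternative run, between −0.76 and −0.30. Its 4 partly overlapping probes gave −0.38, −0.28, −0.30 and −0.24. The probe that stands for the gene is shown because all of its probes lay on the same side of 0, at chr1:108477059-108477118 (oryCun2, minus strand).
CUL5 probe A_04_P001669: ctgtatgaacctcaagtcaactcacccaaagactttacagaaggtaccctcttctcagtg
CUL4B, a scaffold of ligases that act in the nucleus, averaged 9.26 ± 0.21 in dexamethasone samples and 9.50 ± 0.26 in saline samples (SD, n = 4 each). Its difference of −0.24 was −0.05 without the array of saline 3 and 4 and −0.44 without that of saline 1 and 2, and its other 3 probes gave −0.01, 0.03 and 0.06. CUL4A, its close relative by the gene table although the array's text says cullin 4B, had 8.20, 8.28, 8.26 and 8.28 in dexamethasone samples, against 8.71, 8.37, 8.37 and 8.37 in saline samples. CUL4A did not overlap between groups but was well above background in only 2 dexamethasone and 3 saline samples, and its difference of −0.20 had an adjusted p of 0.447 in limma. CUL4A was −1.44 under scaling to the 75th percentile, where it passed the test (adjusted p = 0.0308, limma). There the 2809 dimmest genes had a median of −1.10, and 19% of all genes passed. DCUN1D5, which helps attach NEDD8 to cullins, lay higher without overlap at 10.91 ± 0.11 in dexamethasone samples and 10.73 ± 0.10 in saline samples (SD, n = 4 each). Its difference was 0.17 and read −0.01 in Agilent's processed signals, where all genes lay at −0.26. Its 9 kept probes ran from −0.17 to 0.30, with 3 below 0. CUL4A and DCUN1D5 were named after their values were seen. CUL1 and CUL3, the scaffolds of the F-box and BTB ligases, differed by 0.12 (SE 0.10) and 0.04 (SE 0.15).

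F-box proteins split into 3 above and 4 below 0 among 7 tested, with a median of −0.04. It was 0.09 in the deposited series table, where all genes lay at 0.13. FBXO33 had 9.38, 9.37, 9.45 and 9.14 in dexamethasone samples, against 9.14, 9.16, 8.74 and 8.81 in saline samples. Dexamethasone 4 lay just below saline 1 and 2 and the other dexamethasone samples above all saline samples, and the difference was 0.37 (SE 0.14, adjusted p = 0.349, limma). FBXO33 lay at −0.13 under scaling to the 75th percentile, where all genes lay at −0.25. FBXO42, a subunit that binds p53 in human cells, had 8.58, 8.41, 8.60 and 8.35 in dexamethasone samples, against 8.79, 8.68, 8.68 and 8.66 in saline samples. The groups did not overlap, and the difference was −0.22 (SE 0.09, adjusted p = 0.361, limma). It was −0.88 in Agilent's processed signals and −1.18 under scaling to the 75th percentile, where it passed the test (adjusted p = 0.0319, limma). In these settings the 2809 dimmest genes had medians of −0.41 and −1.10. Under the 75th percentile 19% of all genes passed. The 5 probes of FBXO42 start at successive bases of the transcript. The first 2 are shown because their signs differ, with the 56 bases that all 5 hold in capitals. The file gives them no genome position.
FBXO42 probe A_04_P075561: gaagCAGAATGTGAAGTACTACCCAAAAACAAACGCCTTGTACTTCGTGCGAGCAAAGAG
FBXO42 probe A_04_P075560: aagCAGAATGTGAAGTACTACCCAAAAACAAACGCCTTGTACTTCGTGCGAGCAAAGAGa
The first, which stands for the gene, gave −0.22 (SE 0.09) and the second 0.12 (SE 0.12), while the other 3 gave −0.13, −0.04 and 0.12.

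Among other ubiquitin ligases 10 of 13 tested genes lay above 0, with a median of 0.04. ITCH, UBR1, UBR2 and UBR7, all above 0, were well above background in 4 dexamethasone but only 2 saline samples each. The role median became −0.24 in Agilent's processed signals and −0.42 under scaling to the 75th percentile, where all genes had medians of −0.26 and −0.25. Relative to all genes it was 0.02 in the reported fit, 0.02 in Agilent's processed signals and −0.17 under the 75th percentile. UBE3A, the ligase that is lost in Angelman syndrome, had 12.35, 12.18 and 11.92 in dexamethasone samples 1, 3 and 4, against 11.87, 12.02, 11.60 and 11.91 in saline samples. Sample 2 of dexamethasone had no value and the groups overlapped. Its 3 probes gave 0.31, −0.38 and 0.01, and the probe with the first value stood for the gene (SE 0.17, adjusted p = 0.423, limma). UBR1, a ligase of the N-degron pathway, averaged 8.46 ± 0.09 in dexamethasone samples and 8.17 ± 0.21 in saline samples (SD, n = 4 each). Its difference of 0.30 read −1.01 under scaling to the 75th percentile, where the 2809 dimmest genes had a median of −1.10. The UBR1 probe was well above background in 4 dexamethasone but only 2 saline samples, and the gene's other kept probe gave 0.02. SMURF2, a ligase that acts on the TGF-beta pathway, averaged 9.60 ± 0.13 in dexamethasone samples and 9.84 ± 0.14 in saline samples (SD, n = 4 each). Its difference of −0.25 stayed below 0 under every alternative run. Under scaling to the 75th percentile it was −0.252, beside a median of −0.247 for all genes. ARIH1, which works with cullin ligases and was named after its values were seen, had 10.69, 10.72, 10.64 and 10.62 in dexamethasone samples, against 10.57, 10.50 and 10.52 in saline samples 1 to 3. Its groups did not overlap, and the difference was 0.14 (SE 0.10) but −0.16 in Agilent's processed signals.

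The ubiquitin specific peptidases had the highest role median, 0.15 over 10 tested genes, with 7 above 0. Of these 7, USP5 (0.26) and USP38 were well above background in 4 dexamethasone samples but only 1 and 2 saline samples. Their dexamethasone samples alone met the filter of 4 samples, so the role median rests in part on that filter. The role median was −0.04 in Agilent's processed signals and −0.10 under scaling to the 75th percentile, where all genes had medians of −0.26 and −0.25. USP38 had 9.20, 8.92, 8.88 and 8.74 in dexamethasone samples, against 8.51, 8.67, 8.31 and 8.33 in saline samples. All dexamethasone values were higher, but only 2 of the saline samples were well above background. The difference was 0.48 (SE 0.14, adjusted p = 0.305, limma) and read −0.42 under scaling to the 75th percentile. USP25 had 9.58, 9.87, 9.55 and 9.60 in dexamethasone samples, against 9.45, 9.40, 9.04 and 9.03 in saline samples. The groups did not overlap, saline 3 and 4 lay below saline 1 and 2, and the difference was 0.42 (SE 0.14, adjusted p = 0.325, limma). It lay above 0 under every alternative run, between 0.13 and 0.66, and its 3 probes gave 0.42, 0.06 and 0.23. The probes that stand for these 2 genes are shown as the higher members that lead by p. USP38 spans chr15:21242214-21249161 on the minus strand and USP25 chr14:143850244-143850303 on the plus strand (oryCun2).
USP38 probe A_04_P071952: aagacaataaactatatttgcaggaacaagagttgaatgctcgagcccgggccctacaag
USP25 probe A_04_P083934: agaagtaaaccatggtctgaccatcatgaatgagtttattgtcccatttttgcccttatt
USP14, the peptidase that trims ubiquitin on the proteasome itself, averaged 10.59 ± 0.08 in dexamethasone samples and 10.50 ± 0.13 in saline samples (SD, n = 4 each). Its 5 probes gave both signs, from −0.26 to 0.09.

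Across the members, 46 genes had 2 or more kept probes, and in 19 of them every probe had the same sign. The probes of a gene differed by a median span of 0.28. For 58 pairs of probes that share at least 50 bases, in 11 genes, the 2 differences lay a median of 0.11 apart and at most 0.54, and 38 pairs had the same sign. The 174 pairs that share fewer bases lay a median of 0.17 apart, and 95 had the same sign. Pairs of 1 gene share samples and often bases, so these counts describe the probes and are not replicates.

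**Figure D3:**
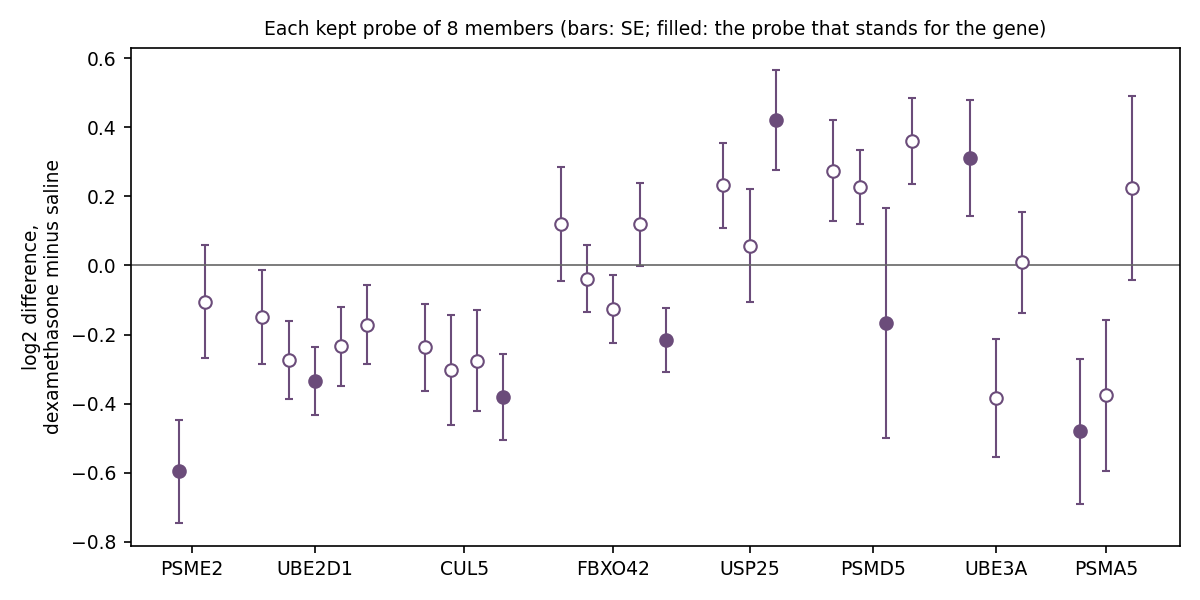
Log2 difference (dexamethasone minus saline, vertical axis) of each kept probe of 8 members, with bars for the SE and a filled point for the probe that stands for the gene. All probes of UBE2D1 and CUL5 lie below 0 and all probes of USP25 above it, while FBXO42, PSMD5, UBE3A and PSMA5 have probes on both sides. UBE2D1 lay at 0.01 under scaling to the 75th percentile.

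The saline arrays differed from each other more than the dexamethasone arrays did. The median gap between samples 3 and 4 and samples 1 and 2 was 0.09 among members in dexamethasone and 0.18 in saline, close to the 0.10 and 0.18 over all genes. A gap over 0.5 was seen for 0 members in dexamethasone and 7 in saline (7.78%), beside 3.99% and 10.5% of all genes. PSMA2, a core subunit, had 13.80, 13.80, 13.89 and 13.77 in dexamethasone samples, against 13.63, 13.78, 12.93 and 13.12 in saline samples. Its difference of 0.45 (SE 0.19, adjusted p = 0.362, limma) was 0.11 without the array of saline 3 and 4 and 0.79 without the array of saline 1 and 2. PSMD5, an assembly chaperone of the regulatory particle named after its values were seen, had 9.95, 9.74, 10.19 and 10.10 in dexamethasone samples, against 11.07, 10.46, 9.53 and 9.58 in saline samples. Its saline arrays lay on either side of the dexamethasone range, and the difference of −0.17 became −0.77 without saline 3 and 4 and 0.44 without saline 1 and 2. The other 3 kept probes of PSMD5 gave 0.23 to 0.36.

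**Figure D4:**
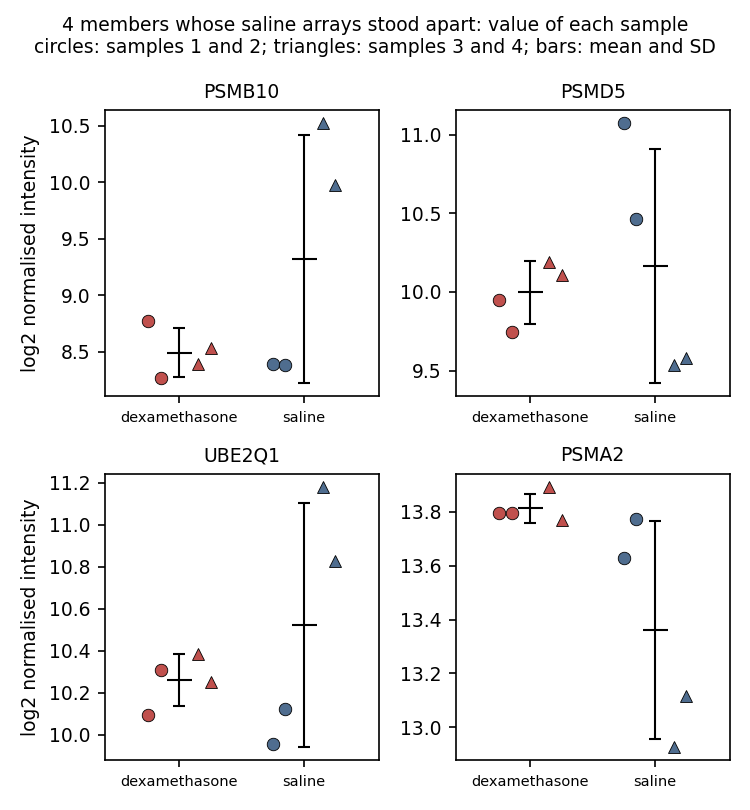
Log2 normalised intensity (vertical axis) of PSMB10, PSMD5, UBE2Q1 and PSMA2 in each dexamethasone sample (left) and saline sample (right), with the mean and SD of each group. In saline, samples 3 and 4 (triangles, 1 array) lie apart from samples 1 and 2 (circles, the other array), by 1.86 for PSMB10, −1.21 for PSMD5, 0.97 for UBE2Q1 and −0.68 for PSMA2.

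The count of members called depended on 1 saline array. Without the array of saline 1 and 2, 20 of 84 members passed an adjusted p of 0.05 in limma (23.8%, 9 higher and 11 lower), and so did 21.4% of all genes. PSMB10, PSMA2, PSME2 and UBE2Q1 had the lowest adjusted p there, from 0.00197 to 0.0119. Without the array of saline 3 and 4, 0 of 86 members passed. The 2 samples left in saline then came from 1 array, whose own spread is the only measure of the group. Scaling each sample to its 75th percentile in place of loess and quantile steps called 11 members (12.2%), all lower, beside 19% of all genes. They were PSMB9, PSMB10, CUL4A, DCUN1D4, FBXO42, FBXO45, UBE2W, UBE3B, HECW2, UBR1 and UBR7. Under that scaling the median difference over all genes was −1.10 among the dimmest genes and 0.56 among the brightest (2809 genes each), against 0.01 and 0.04 in the reported fit.

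Genes of the pathway outside the members were read from a fixed list of 75, of which 47 were found on the array by name and 36 were tested. In limma 0 of the 36 passed, and 4 higher (11.1%) and 3 lower (8.33%) had an unadjusted p under 0.05. Of the 36, 25 lay above 0 and 11 below, with a median of 0.12. It was −0.10 in Agilent's processed signals, where all genes lay at −0.26. Relative to the median of all genes it was 0.09 in the reported fit and 0.16 in those signals. Over all genes the shares were 6.33% and 7.4%, and 54.3% lay above 0, against 69.4% of the 36. ELOC, the elongin C adaptor of CUL5 and CUL2 ligases, averaged 11.54 ± 0.13 in dexamethasone samples and 11.07 ± 0.18 in saline samples (SD, n = 4 each), with a difference of 0.46 (SE 0.10, adjusted p = 0.200, limma). The groups did not overlap, and the difference lay above 0 under all 5 scalings compared. RPS27A, which encodes ubiquitin fused to a ribosomal protein, differed by −0.34 (SE 0.11), which was 0.23 under scaling to the 75th percentile. FBXW11, the substrate receptor of a cullin 1 ligase, differed by −0.48 (SE 0.16). It was well above background in at most 5 samples. FBXW11 read −1.78 in Agilent's processed signals and −1.40 under scaling to the 75th percentile. In these settings the 2809 dimmest genes had medians of −0.41 and −1.10. All 5 tested subunits of the COP9 signalosome, which removes NEDD8 from cullins, lay above 0 with a median of 0.15, and 4 of the 5 did so in Agilent's processed signals and under scaling to the 75th percentile. The lowest adjusted p among them was 0.451 in limma.

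Of the 26 untested members, 5 were well above background in all 8 samples but had too few values once outlier spots were left out. They were the core subunits PSMA3, PSMB1 and PSMB6, the F-box protein FBXO28 and LOC100359068. The other 21 had no probe well above background in at least 4 samples, so that no level or direction is given for them. They include PSMB8, PSMA8 and PSMB11, core subunits known from immune cells, testis and thymus.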

How the data were processed

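Labelled RNA of 8 pups was hybridised to 4 two-colour Agilent rabbit arrays, with both dyes of an array holding samples of the same group. The deposited scanner files hold spot intensity values extracted by Agilent Feature Extraction. Its version is 11.0.1.1 per the file headers, whereas the submitters' processing notes name 10.7.3.1. The deposited series table, an alternative here, holds signal values with a median of 1 in each sample, and how the authors made it is not given in the sources used here.

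Mean intensity was background-corrected by normexp with an offset of 50, outlier spots were left out, and log2 values were normalised by loess within arrays and Aquantile between them (R 4.3.3, limma 3.58.1). A probe was kept if it was well above background in at least 4 samples and had at least 3 values in each group, and a gene was read from its brightest kept probe. Of 43603 probes, 23165 were well above background and 20704 of these had enough values, standing for 11236 genes. Treatment was tested with dye as a term and array as a random block (consensus correlation 0.239), with Benjamini-Hochberg adjustment over all genes. The limma fit was tested on simulated log2 values of genes, and the steps before it were not. Spot brightness and the number of arrays limit the precision.

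The members and lists were chosen with earlier results of these data known. Named genes were the tested members of a list fixed by name and, in each role with at least 3 tested members, the 2 with the lowest unadjusted p; any member past an adjusted p of 0.05 would have been added. PSMB10, PSMA5, POMP, UBE2Q1, CUL4A, DCUN1D5, ARIH1, PSMD5, ELOC, RPS27A, FBXW11, S100A9, HBB2, ALAS2 and the members called under another scaling were added after their values were seen. So were PSMC6, PSMD12, PSMD14, UBE2H and UBE2M, which are named for their probes. USP5, ITCH, UBR2 and UBR7 are named for their few saline samples well above background, also after their values were seen. Alternatives covered background correction, scaling, filters, blocks and leaving out samples or arrays. One marker gene is not reported here.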

Additional observations from a re-analysis of the deposited data

Results flagged for a closer look

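In 4 of 63 groups of 4 samples examined, 1 sample lay far from the other 3 by Dixon's test, and chance alone gives about 1 in 20. FBXO42 had 8.79 in saline 1, where the other saline samples had 8.66 to 8.68. CUL4A had 8.71 in saline 1 and 8.37 in the others. PSMD4 had 10.77 in dexamethasone 1, where the other dexamethasone samples had 10.57 to 10.60. USP25 had 9.87 in dexamethasone 2, against 9.55 to 9.60 in the others. FBXO42 and CUL4A thus share a sample, and dexamethasone 1 and 2 share an array. No cause was tested.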

How the results depend on the processing

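The count of 0 members called held in limma under every alternative run but 2: scaling to the 75th percentile called 11 and leaving out the array of saline 1 and 2 called 20 of 84. The median of 0.03 was −0.258 in Agilent's processed signals (all genes −0.265), 0.189 under the 75th percentile (all genes −0.247) and 0.181 in the deposited series table (all genes 0.133). With single samples left out it ran from −0.0152, without dexamethasone 1, to 0.0349. With the replicate number as a block, 0 members were called and the median was 0.0337. The lowest adjusted p was then 0.216, and 5 genes of the array were called. Same-numbered samples did not deviate together (r from −0.141 to 0.0934). Each number also goes with 1 dye and 1 array of its group, so these values cannot show whether the numbers pair samples.

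Of 34 named members followed through the alternatives, 11 kept their sign throughout. The median of all genes was −0.265 in Agilent's processed signals, −0.247 under the 75th percentile and 0.133 in the deposited series table. In Agilent's processed signals these changed sign: ARIH1 −0.161, CUL1 −0.056, CUL3 −0.200, DCUN1D5 −0.00718, LOC100343655 −0.162, PSMB5 −0.265, PSMC3 −0.119, UBE3A −0.044 and USP14 −0.332. Relative to all genes there, PSMB5 lay at −0.000655 and USP14 at −0.0677, and the others in this list lay above 0. Under the 75th percentile these did: FBXO33 −0.13, POMP 0.443, PSMA5 0.0384, PSMC3 −0.142, PSMD11 0.366, PSMD4 0.359, PSME1 0.0747, PSME2 0.0463, UBE2B 0.283, UBE2D1 0.0133, UBE2Q1 0.114, UBR1 −1.01 and USP38 −0.417. The deposited series table gave PSMD11 0.057 and PSMD4 0.161. The mean of all kept probes gave PSMD5 0.174, UBE3A −0.122 and USP14 −0.0513. With single samples left out, the sign also changed for CUL3 (−0.0844 to 0.161), LOC100343655 (−0.118 to 0.176), PSMB5 (−0.0273 to 0.0789), PSMC3 (−0.0331 to 0.124), PSMD4 (−0.066 to 0.0233), UBE2Q1 (−0.49 to 0.0155) and PSMD5 (−0.486 to 0.152). Without the array of dexamethasone 1 and 2, LOC100343655 was −0.146 and PSMB5 −0.0273, and without that of dexamethasone 3 and 4, PSMD4 was 0.0345. Without that of saline 1 and 2, LOC100343655 was −0.0282, PSMB5 −0.0200, PSMD4 0.0269 and PSMD5 0.441, and without that of saline 3 and 4, PSMB10 was 0.104 and UBE2Q1 0.222. The causes were not tested. PSME2 and UBE2B had too few values without the array of saline 3 and 4. Dim probes, outlier spots and 2 arrays a group limit these results.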
